A study of Rattus norvegicus with 13 samples.

Results

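The miR-143 and miR-145 hairpins give 4 mature miRNAs, which the table names rno-miR-143-3p, rno-miR-143-5p, rno-miR-145-5p and rno-miR-145-3p (written without the species prefix from here on). They were taken by name from the rat mature miRNAs of the deposited count table, with no threshold on their values but with earlier results of these data known, and all 4 were among the 419 of 460 rat miRNAs that passed the low-count filter. The table holds small RNA read counts from whole kidneys, taken on day 35 from 13 females of the inbred Wistar strain WAG/RijCmcr. Control rats (n = 4) were age-matched and received 0 Gy and no drug. The irradiated group (n = 4) was exposed to X-rays (320 kVp, 1.75 Gy per minute) for a dose of 13 Gy, given awake at 11 to 12 weeks of age and about 155 g, to the whole body except a shielded hind limb. The lisinopril group (n = 5) received the same irradiation and, from day 7, lisinopril in the drinking water at about 24 mg per square metre per day. Supportive care after irradiation was saline at 40 ml per kg daily on days 3 to 7 and enrofloxacin at 10 mg per kg daily up to day 14, and the labels do not say whether controls had it. There was no group given lisinopril without irradiation, so the design gives the drug's difference in irradiated rats only.

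A hairpin precursor is cut into a 5p and a 3p arm, and an arm loaded into Argonaute represses mRNAs that pair with its seed, bases 2 to 8. miR-143 and miR-145 are made from a shared primary transcript under serum response factor and myocardin, and are best known from vascular smooth muscle, where they favour the contractile state. In the kidney such cells line arteries and arterioles, and renin-producing cells of the afferent arteriole belong to the same lineage. miR-145-5p is known to repress Klf4, a factor that opposes the contractile programme, and mice without both hairpins have been described to hold more angiotensin converting enzyme, the target of lisinopril, in smooth muscle.

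The mature sequences are shown because the 4 miRNAs carry 4 different seeds, so that a change in an arm is a change in a different set of possible targets. All 4 names matched a RefSeq entry of the GRCr8 build, where both hairpins lie on the minus strand of chromosome 18 inside the long non-coding RNA gene Carmn, with miR-143 first in the direction of transcription. Written 5′ to 3′ with the seed in capitals, they are:
miR-143-3p: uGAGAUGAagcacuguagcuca
miR-143-5p: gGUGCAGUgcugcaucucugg
miR-145-5p: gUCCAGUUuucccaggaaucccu
miR-145-3p: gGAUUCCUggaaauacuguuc
None of the other mature miRNAs among the 693 rat names in that table shares any of these 4 seeds. The letters are the RefSeq reference, and the length variants that were counted are not given in the sources used here.

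Levels are in CPM, read counts scaled to a common library size with TMM, a factor per library that corrects for composition. Counts are listed per mature miRNA name and were not divided by length, and the 4 lengths are 21 to 23 bases. Some names held like values: miR-3543 and miR-434-3p were both at 8.68 CPM in irradiated library 2. In control library 1, miR-183-5p was at 478 CPM and miR-3553 at 391 CPM. Whether the same reads were counted under more than 1 name was not tested, and the shares below take each name as listed. Libraries held 4885082 to 11095939 rat mature counts, except control library 2 with 1194175. The lowest detectable level, taken as 3 counts and covering counting error only, was 3.19 CPM in control library 2 and 0.289 to 0.561 CPM in the remaining 12. The p53 target miR-34a-5p, a check of the irradiation labels, lay between 50.0 and 54.4 CPM in controls, between 256 and 348 CPM in irradiated libraries and between 236 and 356 CPM in those with lisinopril. Kidney tissue was recognisable by miR-192-5p, at 34749 to 95970 CPM, and by the tubular miR-204-5p, at 169 to 288 CPM.

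The 4 members stood far apart in level and kept the same order in all 13 libraries: miR-143-3p, miR-145-5p, miR-145-3p and, lowest, miR-143-5p. miR-143-3p was the 5th to 7th most abundant rat miRNA, with 2.57% to 4.69% of rat mature counts. miR-145-5p ranked between 72 and 98 and held 0.0278% to 0.0780%. miR-145-3p ranked between 153 and 192, and miR-143-5p between 197 and 267, with 35 to 232 counts per library. The main arm is thus 3p for miR-143 and 5p for miR-145 in every library.

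**Figure D1:**
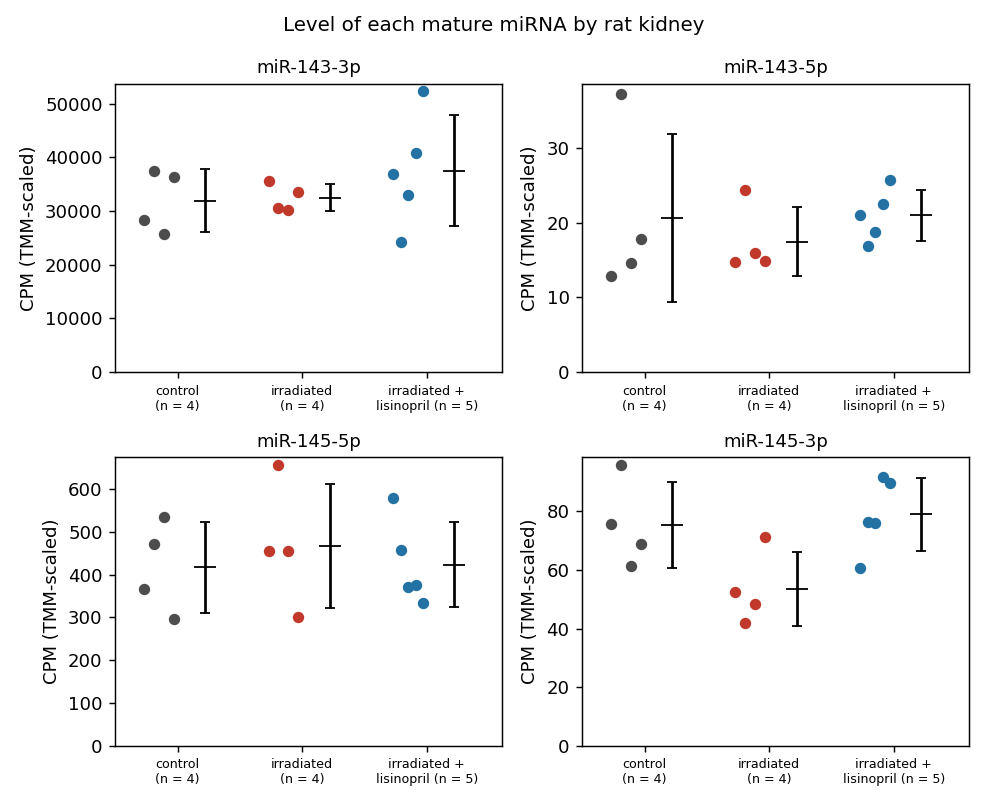
Level in CPM (vertical axis, from 0) of the 4 mature miRNAs in each kidney (points, in replicate order), and the mean ± SD of 4 control, 4 irradiated and 5 lisinopril-treated irradiated rats (bars). In miR-145-3p, 3 of the 4 irradiated kidneys lie below every control, and the fourth, at 71.4 CPM, lies among them.

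In irradiated kidneys neither main arm differed from controls by more than the spread between rats, and no member passed the test. miR-145-3p, the minor arm of miR-145, came nearest, at 53.5 ± 12.7 CPM (SD, n = 4) in irradiated against 75.4 ± 14.8 CPM (n = 4) in control kidneys. Adding lisinopril to irradiation again left miR-145-3p as the member with the smallest p, at 79.0 ± 12.5 CPM (n = 5). Its level under the drug was close to that of controls in mean, and no comparison reached an adjusted p under 0.05. Adjusted p-values of fold changes, here and below, were computed with edgeR (quasi-likelihood F test) and corrected by Benjamini-Hochberg across the 419 miRNAs.

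For miR-143-3p, the abundant arm, control libraries 1 to 4 held 28240, 37532, 25795 and 36269 CPM. Irradiated libraries 1 to 4 held 35543, 30607, 30203 and 33560 CPM. Lisinopril libraries 1 to 5 held 36990, 24248, 32961, 40837 and 52334 CPM. The irradiated libraries lay inside the range of the controls, while the lisinopril group held both the lowest and the highest library of all 13. Group means were 31959 ± 5815 CPM in control, 32478 ± 2532 CPM in irradiated and 37474 CPM (coefficient of variation 27.6%) in lisinopril kidneys. The log2 fold change was 0.02 (SE 0.193, 95% interval -0.39 to 0.43, adjusted p = 0.968) for irradiated against control. For lisinopril against irradiated it was 0.21 (SE 0.183, 95% interval -0.18 to 0.60, adjusted p = 0.565). Against control, the lisinopril group was at 0.23 (SE 0.183, 95% interval -0.16 to 0.62, adjusted p = 0.541).

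The interval of irradiated against control corresponds to 0.765 to 1.35 times the control level of miR-143-3p, so changes within that range remain compatible with these data. Among the irradiated libraries its coefficient of variation was 7.80%, and 31 of the 419 tested miRNAs had a smaller one in that group. In the lisinopril group 330 of 419 had a smaller one than its 27.6%, against a median of 15.6% over all tested miRNAs.

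miR-145-5p, the main arm of miR-145, was at 366, 471, 535 and 298 CPM in control libraries 1 to 4. It was at 456, 656, 456 and 301 CPM in irradiated libraries 1 to 4, and at 580.2, 459, 370.4, 375 and 335 CPM in lisinopril libraries 1 to 5. The 3 groups overlapped widely, and the highest library was irradiated library 2. Means were 418 ± 106 CPM in control, 467 ± 146 CPM in irradiated and 424 ± 98.5 CPM in lisinopril kidneys. The log2 fold change of irradiated against control was 0.16 (SE 0.239, 95% interval -0.34 to 0.67, adjusted p = 0.703). It was -0.14 (SE 0.225, adjusted p = 0.773) for lisinopril against irradiated and 0.02 (SE 0.226, adjusted p = 0.974) for lisinopril against control. The interval of irradiated against control allows 0.787 to 1.59 times the control level.

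miR-145-3p, the minor arm, was at 75.8, 95.7, 61.3 and 68.9 CPM in control libraries 1 to 4. Irradiated libraries 1 to 4 held 52.3, 42.1, 48.3 and 71.4 CPM, and lisinopril libraries 1 to 5 held 60.8, 76.4, 76.1, 91.8 and 89.8 CPM. Of the 4 irradiated kidneys, 3 lay below all controls, and 4 of the 5 lisinopril kidneys lay above all irradiated ones, so both pairs of groups overlapped through irradiated library 4. Control and lisinopril kidneys shared most of their range.

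The log2 fold change of miR-145-3p was -0.48 (SE 0.192, 95% interval -0.89 to -0.07, unadjusted p = 0.0245, adjusted p = 0.143) for irradiated against control by edgeR, a level 0.717 times that of controls. Its p ranked 72 of 419. For lisinopril against irradiated it was 0.56 (SE 0.182, 95% interval 0.18 to 0.95, unadjusted p = 0.00736, adjusted p = 0.206), 1.48 times the level without the drug. Here its p ranked 15 of 419. For lisinopril against control it was 0.08 (SE 0.182, 95% interval -0.30 to 0.47, adjusted p = 0.846). These comparisons share libraries: the same 4 irradiated libraries enter both of the first pair.

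The calls for miR-145-3p depended on irradiated library 4. Without it, the log2 fold change was -0.64 (adjusted p = 0.0352) against control and 0.72 (adjusted p = 0.0346) for lisinopril against irradiated, both past the threshold. Leaving that library out also raised the calls over all tested miRNAs, to 60 and 47 of 429 from 7 and 0 of 419. Limma-voom with sample quality weights also took the second comparison past the threshold (0.69, adjusted p = 0.0106), where it called 33 of all 419. Scaling by library totals alone gave -0.23 and 0.38, but it moved the median of all tested miRNAs to 0.26 and -0.21. Relative to that median, miR-145-3p stood at -0.49 and 0.59, against -0.50 and 0.59 with TMM.

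**Figure D2:**
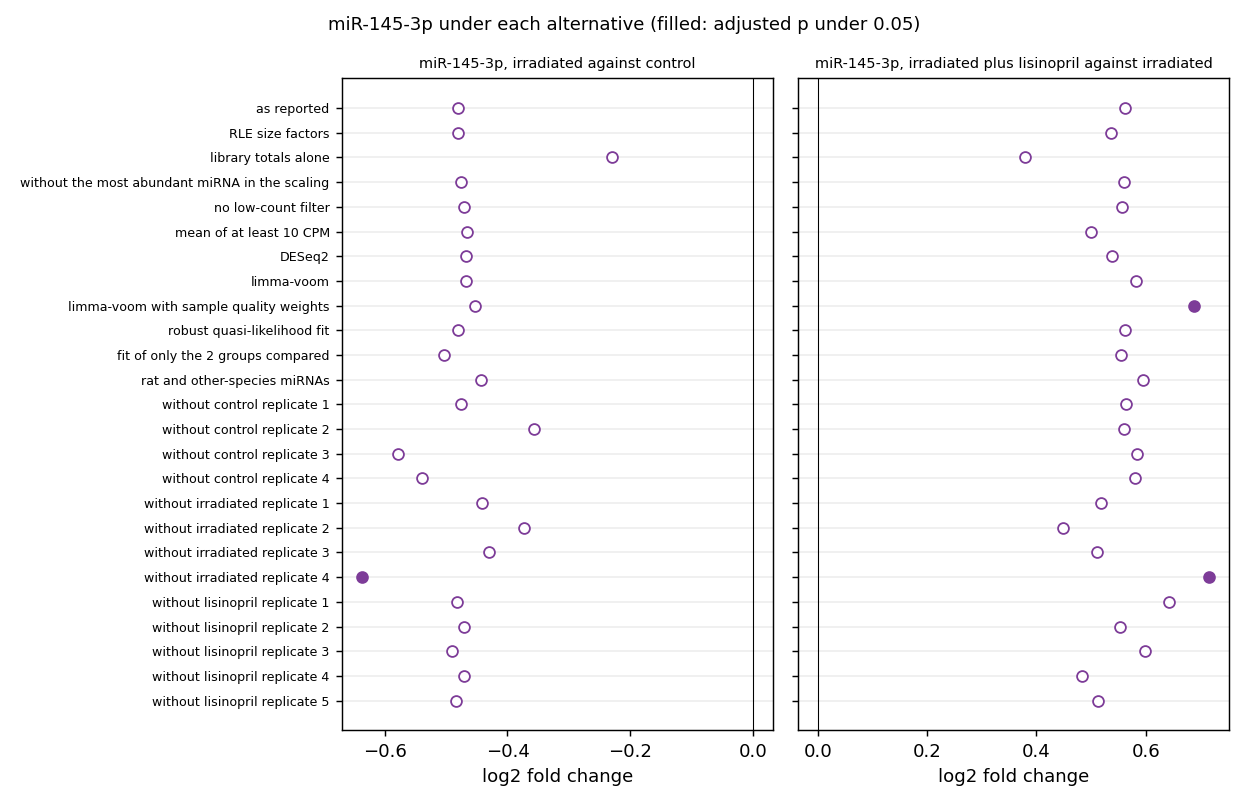
Log2 fold change of miR-145-3p (horizontal axis) as reported and under each of 24 alternative settings (vertical axis), for irradiated against control and for irradiated plus lisinopril against irradiated. Filled points have an adjusted p under 0.05, which holds without irradiated replicate 4 in both panels and with sample quality weights in the right one.

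Other values moved with miR-145-3p across the groups. TMM factors were 1.02 to 1.19 in irradiated libraries, 0.787 to 1.1 in controls and 0.897 to 1.06 with lisinopril. CPM divides counts by the library total times this factor, so a larger factor lowers every CPM of its library. The factor therefore enters both miR-145-3p and the sum that follows, and these are not separate observations. The 11 listed miRNAs of kidney tubule summed to between 353842 and 487695 CPM in irradiated libraries, between 435178 and 746249 CPM in controls and between 450259 and 581201 CPM with lisinopril, and none of these 11 stood at 0. This sum is mostly 2 miRNAs: miR-10a-5p made up 65.0% to 75.3% of it, and miR-10a-5p and miR-192-5p together 79.6% to 84.7%. Single tubule miRNAs did not all go with it, since 3 of the 11 had a positive log2 fold change after irradiation, the list's median was -0.16, and tubular miR-204-5p was at 226 CPM in irradiated against 219 CPM in control kidneys. The part of the scaling factors and of these miRNAs in the result was not tested. In RNA from a whole kidney, fewer cells of a type and less RNA per cell cannot be told apart.

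miR-143-5p, the minor arm of miR-143, was at 12.9, 37.2, 14.6 and 17.8 CPM in control libraries 1 to 4. It was at 14.8, 24.3, 15.9 and 14.8 CPM in irradiated libraries 1 to 4 and at 21.1, 16.8, 18.8, 22.5 and 25.7 CPM in lisinopril libraries 1 to 5. The highest value came from control library 2, the shallowest, where it rests on 35 reads. Means were 20.6 ± 11.3, 17.5 ± 4.61 and 21.0 ± 3.42 CPM in the order of the groups above. On the log2 scale, irradiated and control kidneys differed by -0.12 (SE 0.289, adjusted p = 0.830), lisinopril and irradiated kidneys by 0.26 (SE 0.264, adjusted p = 0.628), and lisinopril and control kidneys by 0.14 (SE 0.273, adjusted p = 0.837). The first of these was 0.22 without control library 2, 0.16 by library totals and 0.06 by limma-voom, so its sign depends on these choices.

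Read together, the edgeR test called 0 of the 4 members in irradiated against control, where it called 1.67% of all tested miRNAs. It called 0 of 4 in lisinopril against irradiated, where it called 0% of all, and 0 of 4 in lisinopril against control, where it called 6.21%. DESeq2 and limma-voom also called 0 of the 4 in each comparison. At an unadjusted p under 0.05 there was 1 member, miR-145-3p, in each of the first 2 comparisons and 0 in the third, against 22.2%, 15.0% and 22.7% of all tested miRNAs. In 0 of the 4 members did 2 compared groups fail to overlap, beside 7.16%, 4.30% and 13.4% of all tested miRNAs in the 3 comparisons. With shares this small, 0 of 4 does not set the members apart. The median log2 fold change of the 4 was -0.05, 0.23 and 0.11, beside 0.02, -0.02 and 0.05 over all 419.

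**Figure D3:**
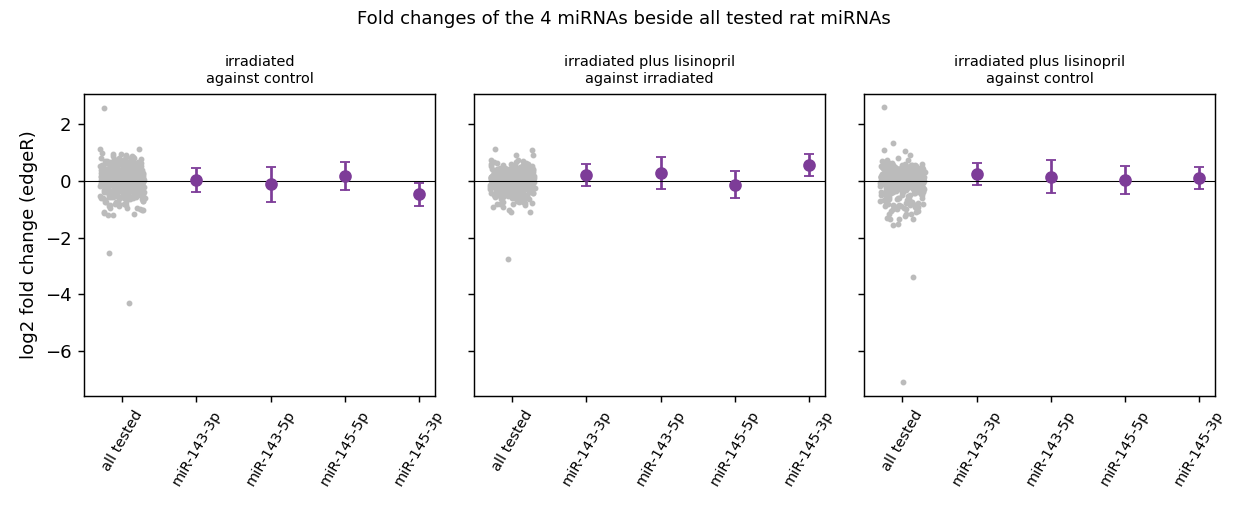
Log2 fold change from edgeR (vertical axis) of all 419 tested rat miRNAs (grey points, spread sideways at random) and of the 4 members with 95% intervals, in the 3 comparisons. Of the 12 member values, miR-145-3p in the middle panel (0.56) lies above the 95th percentile of all miRNAs (0.49), and of the 12 intervals only those of miR-145-3p in the first 2 panels leave out 0.

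Ratios of counts within a library do not depend on library scaling. miR-143-3p outnumbered its partner arm 1008-fold to 2407-fold, with the lowest ratio in control library 2. miR-145-5p outnumbered miR-145-3p 4.83, 4.92, 8.73 and 4.32 times in control libraries 1 to 4. In irradiated libraries 1 to 4 the same ratio was 8.71, 15.6, 9.44 and 4.21, and in lisinopril libraries 1 to 5 it was 9.54, 6.0, 4.87, 4.09 and 3.73. So 2 irradiated kidneys had a ratio above every control, library 1 lay just under the highest control, and library 4 lay below all controls.

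The miR-145 arm ratio differed by 0.65 on the log2 scale (SE 0.451) between irradiated and control kidneys, 1.57 times as high. By exact permutation (two-sided) p was 0.314, where 4 against 4 allows no less than 0.0286. Lisinopril kidneys differed from irradiated ones by -0.69 (SE 0.458, exact permutation p = 0.175) and from controls by -0.04 (SE 0.332, exact permutation p = 0.921). The mature miR-143-3p to miR-145-5p ratio, which sets the main arms of the hairpins side by side, ran from 46.6 to 156 over the 13 libraries. Its differences were -0.11, 0.28 and 0.17 in the 3 comparisons, and those of the miR-143 arm ratio were 0.18, -0.12 and 0.06. Over these 9 tests of ratios the Benjamini-Hochberg adjusted p was between 0.882 and 0.921, so none passed.

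**Figure D4:**
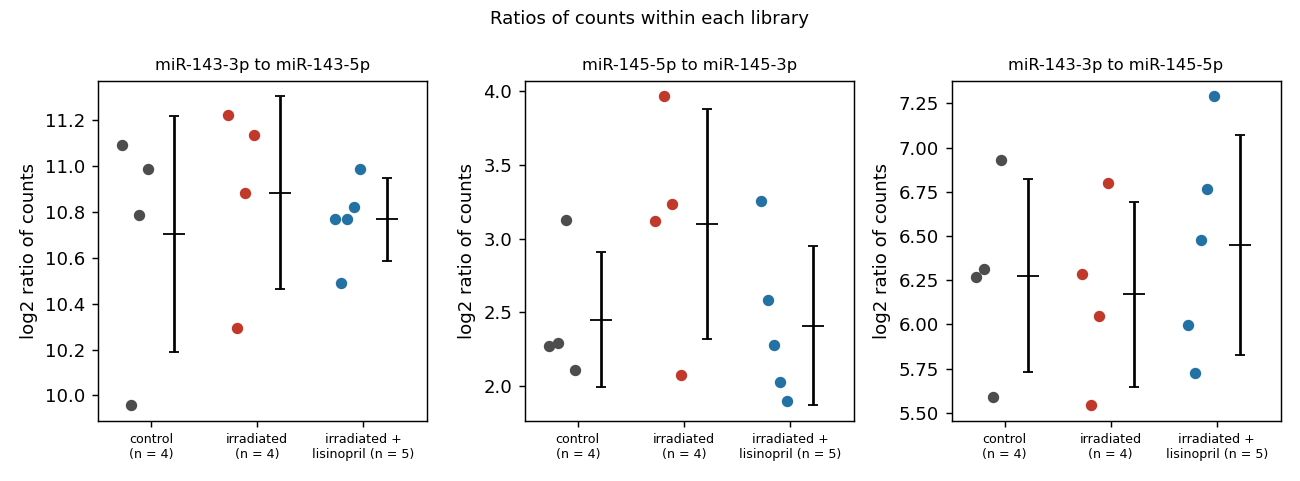
Log2 ratio of counts (vertical axis, not from 0) of miR-143-3p to miR-143-5p, miR-145-5p to miR-145-3p and miR-143-3p to miR-145-5p in each library (points, in replicate order), with the group mean ± SD, for 4 control, 4 irradiated and 5 lisinopril rats. The groups overlap in every panel, and the irradiated spread of the miR-145 arm ratio runs from 2.07 to 3.96.

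Although it uses no scaling, the miR-145 arm ratio moved with the TMM factor of the library. Over 13 libraries Pearson's r between the log2 values was 0.808 (permutation p = 0.00093, adjusted p = 0.00558) and Spearman's rho 0.797 (permutation p = 0.00159, adjusted p = 0.00954). Without the 2 libraries farthest from the median factor r was 0.886 (n = 11), and after removal of group means it was 0.759. The ratio of miR-143-3p to miR-145-5p went the other way, with r = -0.629 (permutation p = 0.0214, adjusted p = 0.0642) and rho = -0.709 (permutation p = 0.00824, adjusted p = 0.0247). Without the 2 farthest libraries this r was -0.743, and after removal of group means -0.733. The miR-143 arm ratio had r = 0.185 and rho = -0.0824 with the factor (permutation p = 0.544 and 0.794). With the total of rat mature counts, r was 0.549, -0.0943 and 0.108 for the miR-143 arms, the miR-145 arms and the pair of main arms, with adjusted permutation p-values of 0.140, 0.808 and 0.808. These 6 relations were chosen after the ratios were seen, and no group holds enough libraries for a value of its own.

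**Figure D5:**
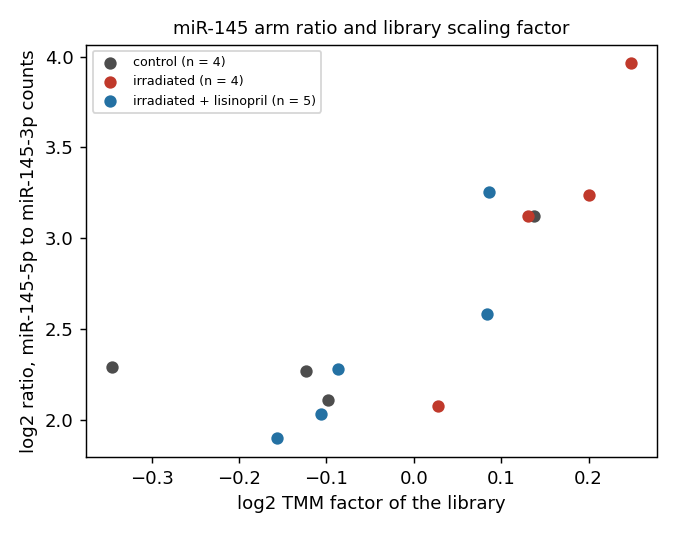
Log2 ratio of miR-145-5p to miR-145-3p counts (vertical axis, not from 0) against the log2 TMM factor (horizontal axis) of each of the 13 libraries, coloured by group. The ratio is highest, at 3.96, in the library with the largest factor, and control library 2 lies at the far left with 2.29.

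The members did not all vary together among rats. The arms of miR-143 had r = 0.568 (permutation p = 0.0446, adjusted p = 0.134) and rho = 0.676 (permutation p = 0.0142, adjusted p = 0.0852) in log2 CPM over 13 libraries. The arms of miR-145 had r = -0.567 (permutation p = 0.0434, adjusted p = 0.134) and rho = -0.341 (permutation p = 0.257, adjusted p = 0.385). Without the 2 libraries farthest from the median, r was 0.550 and -0.688. The main arms miR-143-3p and miR-145-5p, from the shared transcript, had r = -0.363 (permutation p = 0.225, adjusted p = 0.279). Of the 6 pairs of members none passed the adjustment, and all values share the library scaling.

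By Pearson's r of log2 CPM over the 13 libraries, each member was set beside 279 non-members with a mean of at least 10 CPM. This is a description, and the other members were not candidates. The 3 non-members most like each member are named. For miR-145-3p these were miR-27b-3p (r = 0.973), miR-201-5p (0.926) and miR-30a-5p (0.918). For miR-145-5p they were miR-150-5p (0.846), miR-30c-5p (0.844) and miR-3589 (0.793). For miR-143-3p they were miR-21-3p (0.938), miR-30a-3p (0.826) and miR-532-5p (0.810). For miR-143-5p they were miR-106b-3p (0.822), miR-10b-5p (0.761) and miR-598-3p (0.704). No name is shared between the 4 sets, and the median r over all 279 was between -0.080 and 0.059.

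Other miRNAs linked to smooth muscle and its neighbours were read from fixed lists, and none of them passed in irradiated against control or in lisinopril against irradiated. Of 8 tested miRNAs of the contractile state, 3 had a positive and 5 a negative log2 fold change in irradiated against control, with a median of -0.06. Among them were miR-1-3p (-0.88, adjusted p = 0.229), a muscle miRNA at 0.279 to 3.19 CPM here, and miR-22-3p (0.14, adjusted p = 0.544). The highest value of miR-1-3p equals the lowest detectable level of control library 2. Its lowest value, in irradiated library 3, lies below the 0.419 CPM detectable there. With lisinopril added, miR-22-3p was at -0.30 (adjusted p = 0.274) and miR-28-5p at -0.22 (adjusted p = 0.405), and the list's median was -0.05. The striated and smooth muscle miRNA miR-133a-3p was at 22.6 to 42.6 CPM over all libraries.

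Of 8 tested miRNAs of vascular proliferation, 4 were positive and 4 negative after irradiation (median -0.02), with values of -0.74 for miR-146a-5p (adjusted p = 0.105) and -0.60 for miR-21-5p (adjusted p = 0.143). With lisinopril added, 2 were positive and 6 negative (median -0.04), and miR-222-3p and miR-221-3p, which act against the contractile state, were at -0.44 (adjusted p = 0.248) and -0.24 (adjusted p = 0.386). Of 9 fibroblast and pericyte miRNAs, 3 were positive and 6 negative after irradiation (median -0.01), and 5 were positive and 4 negative with lisinopril added (median 0.23). The 2 with the smallest p after irradiation were miR-214-3p at 0.84 (adjusted p = 0.0709) and miR-497-5p at 0.41 (adjusted p = 0.313). For miR-214-3p, irradiated library 2 held 148 CPM and the remaining irradiated libraries 64.5 to 75.8 CPM, against 42.5 to 57.9 CPM in controls. With lisinopril added, miR-199a-5p was at 0.35 (adjusted p = 0.165) and miR-199a-3p at 0.27 (adjusted p = 0.307). Of 9 miRNAs linked to renin cells or angiotensin, 5 were positive after irradiation (median 0.17) and 4 with lisinopril added (median -0.02). miR-155-5p, which targets the angiotensin receptor mRNA in human cells, was at -0.57 (adjusted p = 0.135) and miR-330-3p at 0.56 (adjusted p = 0.194) after irradiation. With lisinopril added, miR-132-5p was at 1.09 (adjusted p = 0.248), at 0.726 CPM without and 1.57 CPM with the drug, and miR-330-3p at -0.50 (adjusted p = 0.319). For miR-132-5p, irradiated libraries 1 and 3, at 0.561 and 0.419 CPM, stood at their lowest detectable level.

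Markers of other cells were as follows in the same 2 comparisons, again with 0 called. The lists overlap, so some values enter more than 1 of them. The vascular proliferation and endothelial lists share miR-221-3p and miR-222-3p, and the renin and leukocyte lists share miR-155-5p. The contractile and the skeletal and heart muscle lists share miR-1-3p and miR-133a-3p, and the fibroblast and renin lists share miR-125b-5p. The median log2 fold change of 5 endothelial miRNAs was 0.28 and -0.23, of 3 skeletal and heart muscle miRNAs -0.66 and -0.11, of 11 tubule miRNAs -0.16 and 0.17, of 5 leukocyte miRNAs -0.57 and 0.24 and of 5 erythroid miRNAs 0.52 and -0.02. Positive log2 fold changes were found in 3 and then 2 of the 5 endothelial, in 1 and 1 of the 3 muscle, in 3 and 7 of the 11 tubule, in 1 and 3 of the 5 leukocyte and in 5 and 2 of the 5 erythroid miRNAs, and the rest were negative. Of the erythroid miRNAs, miR-451-5p ran from 2.23 to 219 CPM in irradiated and from 15.5 to 101 CPM in control libraries. For miR-486, the SE of the log2 fold change after irradiation was 0.513. The endothelial miR-126a-3p was lower after irradiation, with a mean of 3657 CPM against 4229 CPM in controls. Those with the smallest p after irradiation were miR-92a-3p (0.65) and miR-221-3p (0.31) for endothelium, miR-499-5p (-0.66) and miR-1-3p for muscle, miR-10a-5p (-0.54) and miR-192-5p (-0.56) for tubule, miR-223-3p (-0.61) and miR-155-5p for leukocytes, and miR-363-3p (0.17) and miR-486 (0.51) for erythroid cells. With lisinopril added they were miR-126a-5p (0.56) and miR-222-3p, miR-499-5p (-0.19) and miR-133a-3p (-0.11), miR-10a-5p (0.41) and miR-192-5p (0.46), miR-223-3p (0.24) and miR-142-3p (0.27), and miR-363-3p (0.22) and miR-144-3p (0.41). In lisinopril against control, 1 miRNA of all 9 lists was called, miR-499-5p, beside 6.21% of all tested miRNAs. It was at 173 CPM with lisinopril against 315 CPM in controls, a log2 fold change of -0.85 (adjusted p = 0.0256). Control library 2, the shallowest, held 506 CPM and the remaining controls 231 to 273 CPM, against 153 to 196 CPM with lisinopril.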

How the data were processed

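The authors deposited raw counts (whole numbers) for each miRNA, in 1 column for each of 13 rat kidneys. Per the submitters' processing notes, Trim Galore 0.2.5, Bowtie 1.1.1 and the rn4 build were used. The rules for assigning and counting reads are not given in the sources used here. Groups came from the labels, which describe separate rats and name no batch.

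For the 460 rat mature miRNAs, edgeR 4.0.16 (R 4.3.3) was run on the counts: filterByExpr by group kept 419, scaling was by TMM, and the quasi-likelihood fit had a term per group and took in all 13 libraries. Log2 CPM used a prior count of 2. Ratios used counts plus 0.5. Permutation tests were exact and two-sided for group differences, and drew 100000 resamples for correlations (SciPy 1.17.1). DESeq2 1.42.0 and limma 3.58.1 were alternatives, beside other scalings, filters and single libraries left out. Each of the 22 pairs of replicate libraries had a chi-square of at least 93.9 per degree of freedom, above sampling noise and none was counted as a duplicate. The procedure was tested on simulated data.

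Named miRNAs were the 4 members, the 3 most like each by Pearson's r, the 2 of each list with the smallest p in the first 2 comparisons (for the third, only calls), miR-34a-5p, and any row of other categories carrying a member's name, of which there were 0. The lists were other smooth muscle, vascular proliferation, fibroblast and pericyte, renin cell, endothelial, skeletal and heart muscle, kidney tubule, leukocyte and erythroid miRNAs. The members and lists were chosen with earlier results of these data known.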

Additional observations from a re-analysis of the deposited data

Results flagged for a closer look

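Within the irradiated group, miR-143-5p was at 24.3 CPM in library 2 and at 14.8 to 15.9 CPM in the other 3 libraries, a gap wide enough to mark that library as far from the rest. Among 21 sets of libraries looked at in this way, this was the only such value, and chance gives about 1 in 20.

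A predicted miRNA window, outside the rat mature miRNAs and with no name, lies at chr18:57623717-57623867 in the deposited table's own coordinates (build rn4, per the submitters' processing notes). Its median over the 13 libraries was 514 counts. In 12 libraries it held 86.4% to 92.7% of the count of miR-145-3p, from 246 to 854 counts, and no other feature outside the rat mature miRNAs followed a member so closely. In control library 2 it was listed at 0, where miR-145-3p had 90 counts. Whether the same reads were counted under both entries was not tested.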

How the results depend on the processing

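No paired analysis was possible because the labels give the rats no replicate number shared between groups. Of 288 alternative values of the 4 members' fold changes, 285 stayed on the same side of the threshold. The exceptions were miR-145-3p without irradiated library 4 in irradiated against control (-0.64) and in lisinopril against irradiated (0.72), and with sample quality weights in the latter (0.69). Over single libraries left out, miR-145-3p ranged from -0.64 to -0.36 and from 0.45 to 0.72 in these 2 comparisons. All 87 alternative values of the ratios stayed on the same side. The correlation of miR-143-3p with miR-145-3p went from 0.399 to -0.144 with library totals, and that of miR-143-5p with miR-145-3p from 0.358 to -0.0737, with none past the threshold.

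The number of called miRNAs moved more. In irradiated against control it was 7, and 2 by library totals, 24 by DESeq2, 1 in the fit of only the 2 groups and 1 with other-species miRNAs added, and 1 to 60 with single libraries left out (60 without irradiated library 4, 1 without control library 4, 2 without irradiated library 1 or 3, 4 without irradiated library 2, 11 without control library 3). In lisinopril against irradiated it was 0, and 2 by RLE, by library totals, without the most abundant miRNA, at a mean of at least 10 CPM and by limma-voom, 9 by DESeq2, 33 with sample quality weights, and 0 to 47 with single libraries left out (47 without irradiated library 4, 2 without lisinopril library 4). In lisinopril against control it was 26, and 17 at a mean of at least 10 CPM, 50 with sample quality weights, 40 in the fit of only the 2 groups, 47 with other-species miRNAs added, and 13 to 43 with single libraries left out (13 without control library 4, 43 without irradiated library 2, 15 without lisinopril library 3 or 4, 16 without lisinopril library 5). The cause was not tested. Depth limited miR-143-5p most, with 35 counts in the shallowest library.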

Other observations

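The spread of the miR-145 arm ratio was set beside that of other hairpins. Among 67 hairpins with both arms tested and at a mean of at least 10 CPM, the SD of the log2 ratio of 5p to 3p counts over the 13 libraries was 0.636 for miR-145, the 6th highest, and 0.356 for miR-143, the median of the 67. Without control library 2, the shallowest, a check added after the data were seen, the SD was 0.656 for miR-145, the 5th highest, and 0.266 for miR-143, the 50th highest, with a median of 0.338. The miR-145 ratio spanned 4.18-fold with and without that library. The hairpin with the highest SD over all 13 libraries was miR-140, at 0.942 and a span of 18.3-fold, but that value rests on control library 2: without it the SD was 0.401 and the span 3.29-fold, both below those of miR-145. miR-3585 was at 0.795 with and 0.822 without that library, and miR-542 at 0.758 and 0.691. These hairpins were named after their values were seen, and libraries of all 3 groups enter each SD.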
